A study of Mus musculus with 7 samples.

Results

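The genes described here are the interferon response and Toll-like receptor genes of the mouse testis. They were chosen by symbol from the deposited expression table, as protein-coding genes whose names are Ifi followed by a digit, t or h, Isg, Irgm, Stat, Tlr or Gbp followed by a digit, Oas followed by a digit or l, Irf followed by a number, or Mx1 and Mx2. Of the 19719 genes listed, 50 matched by name and 47 were also protein-coding. These 47 members are 12 Ifi, 9 Irf, 7 Stat, 6 Tlr, 6 Gbp, 2 Irgm, 2 Isg, 2 Oas and 1 Mx genes. The other 3 name matches were *Mx2*, *Ifi30* and *Ifi203-ps*, which the table gives as a polymorphic pseudogene, a processed transcript and an unprocessed pseudogene. *Tlr9* and *Isg15* are not among the listed genes and were not analysed here.

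RNA of total testis was sequenced from C57BL/6 males at 8 weeks of age, as 3 libraries labelled WT and 4 labelled Rlim-KO, to ask which genes differ when *Rlim*, an X-linked gene for a RING-type ubiquitin ligase, is missing. The controls were fl/Y littermates, which carry the floxed *Rlim* allele without a Cre transgene. The Rlim-KO males were cKO/Y Sox2-Cre (cKO/Y below), in which Cre from the Sox2 promoter acts in the early embryo, so that somatic and germ cells of the testis both carry the deletion. Both genotypes thus inherited the floxed allele, which stays intact in fl/Y and is deleted in cKO/Y males, and only cKO/Y males carry the Cre. The labels give 2 batches. Batch 2 held fl/Y replicates 1 and 2 with cKO/Y replicates 1 and 2, and batch 1 held fl/Y replicate 3 with cKO/Y replicates 3 and 4. The labels call the libraries repeats and do not say that each came from another animal, though the study describes them as biological replicates, and p-values measure the spread between these libraries.

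Interferons are secreted proteins that cells release on sensing viral or bacterial molecules. Toll-like receptors are such sensors: *Tlr4* at the cell surface responds to bacterial lipopolysaccharide, while *Tlr3*, *Tlr7* and *Tlr8* read RNA in endosomes. Their signals reach the nucleus through interferon regulatory factors (Irf proteins), which switch on interferon genes, and interferon receptors then signal through Janus kinases to STAT proteins. STAT2 and IRF9 are parts of the factor ISGF3, which binds the interferon-stimulated response element, and dimers of STAT proteins bind the gamma-activated site. The targets include restriction factors and GTPases that act inside the infected cell. In the testis, Sertoli cells, Leydig cells, macrophages and germ cells differ in these genes, and the tubules are known as a site of restrained immune reaction.

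Reads in the listed genes numbered 2822168 to 8633399 per library. Values are read counts that the authors divided by a scaled library size (CPM), and 1 read stood for at most 0.315 CPM. A count of 0 allows up to 3 reads, or 0.301 to 0.945 CPM, which covers counting error only. The tissue label was borne out by spermatid markers (7 of 7 listed), which summed to 6410 to 9202 CPM in fl/Y and 5830 to 10862 CPM in cKO/Y libraries, while none of 5 epididymis markers was listed. *Rlim* itself had 77.2 ± 19.8 CPM (SD, n = 3) in the controls, compared with 27.7 ± 7.58 CPM (SD, n = 4) in cKO/Y testes. Its log2 fold change was -1.38 with an adjusted p of 0.0087 from limma. This adjusted p was 0.154 when fl/Y replicate 1 was left out and 0.634 when fl/Y replicate 3 was left out.

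Most interferon targets carry their response elements just upstream of the gene start, so the promoters are shown before the RNA values. The RefSeq promoter table (GRCm38.p6) gives 250 bases before and 50 bases after each start, and 39 members matched it with 50 promoters. The interferon-stimulated response element was searched on either strand as GAAA, any 2 bases and GAAA again, which reads TTTC, any 2 bases and TTTC on the other strand. The gamma-activated site was searched as TTC, any 3 bases and GAA, which reads the same on both strands. Matches of the 2 patterns may share bases. The response element was found in the promoters of 17 of the 39 members (43.6%), compared with 3.58% of the 11493 protein-coding genes of the table that have a promoter there. Per promoter, the share was 34.0% of 50 for the members and 3.44% of all 32851 promoters in the RefSeq table. The gamma-activated site was found in 28.2% of the members and in 8.50% of the protein-coding genes. A match is a description of the letters and does not show that a factor binds there.

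The windows below were selected to show the element in each kind of target, namely GTPases of the Gbp and Irgm families, an RNA-binding effector, nuclear Ifi200 proteins and STAT proteins. They are written 5′ to 3′ on the strand of the gene, and capitals mark the match to the response element. None of the 8 windows touches an exon in GENCODE M21. Those of *Gbp5*, *Irgm2*, *Ifi203* and *Stat4* lie in introns of the longer gene models there, and the others upstream of the gene.
Gbp5, chr3:142496749-142496798 on the plus strand: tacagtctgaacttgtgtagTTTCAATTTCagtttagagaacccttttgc
Gbp7, chr3:142530263-142530312 on the plus strand: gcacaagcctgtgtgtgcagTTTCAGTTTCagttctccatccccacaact
Irgm2, chr11:58214893-58214942 on the plus strand: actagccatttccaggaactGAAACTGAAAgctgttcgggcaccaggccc
Ifit3, chr19:34583387-34583436 on the plus strand: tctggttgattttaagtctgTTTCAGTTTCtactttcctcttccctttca
Ifi203, chr1:173942498-173942547 on the minus strand: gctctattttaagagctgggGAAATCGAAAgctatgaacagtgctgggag
Ifi207, chr1:173741821-173741870 on the minus strand: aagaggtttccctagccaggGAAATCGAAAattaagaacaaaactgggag
Stat2, chr10:128270256-128270305 on the plus strand: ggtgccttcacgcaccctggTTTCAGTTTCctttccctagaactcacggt
Stat4, chr1:52008123-52008172 on the plus strand: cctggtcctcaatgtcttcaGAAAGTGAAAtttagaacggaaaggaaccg
In these windows the match began 35 bases (*Ifi203*) to 222 bases (*Stat2*) before the RefSeq gene start. *Ifi203* and *Ifi207*, neighbours in one cluster, have the same 10 letters. Members with a match had a median level of 1.90 CPM and members without one a median of 3.14 CPM, as means over the 7 libraries. Their median log2 fold changes between genotypes were -0.13 and -0.06.

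Many members lie beside a relative. With gaps of up to 500 kb, 9 clusters held 24 of the 47 members. The largest were *Gbp5*, *Gbp7*, *Gbp3* and *Gbp2* on chromosome 3 (142493978 to 142638008) and *Ifi214*, *Ifi209*, *Ifi207* and *Ifi203* on chromosome 1 (173519717 to 173942672). *Stat5b*, *Stat5a* and *Stat3* are neighbours on chromosome 11, and *Tlr8* and *Tlr7* on the X chromosome. Copies of this kind share sequence. In 19 members, over 10% of the 35-base words of their transcripts also occur in transcripts of another gene, with the highest shares in *Ifit3* (59.1%, shared with *Ifit3b*), *Ifitm2* (53.8%, shared with Gm45717) and *Ifi209* (43.6%, shared with *Ifi214*). The levels of these genes are uncertain to that extent, because reads of 35 bases could be split between copies or dropped.

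Most members were at low levels in the testis. The mean over the 7 libraries was above 100 CPM for 1 member, 10 to 100 CPM for 7, 5 to 10 CPM for 5, 1 to 5 CPM for 27 and under 1 CPM for 7. The median of the 47 means was 1.92 CPM, compared with 8.78 CPM over all listed genes and 14.8 CPM over all protein-coding genes. In reads, the members had 23 to 11388 reads over all 7 libraries, with a median of 68. *Stat4* held 42.1 to 58.5% of all member CPM in each library. Per kb of exon, the order of the mean levels began with *Stat4* (81.1 CPM per kb), *Isg20l2* (29.8 CPM per kb), *Isg20* (15.6 CPM per kb) and *Irf3* (10.6 CPM per kb), followed by *Ifitm7* (6.30 CPM per kb) and *Ifi27* (4.64 CPM per kb). All other members were under 4 CPM per kb.

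**Figure D1:**
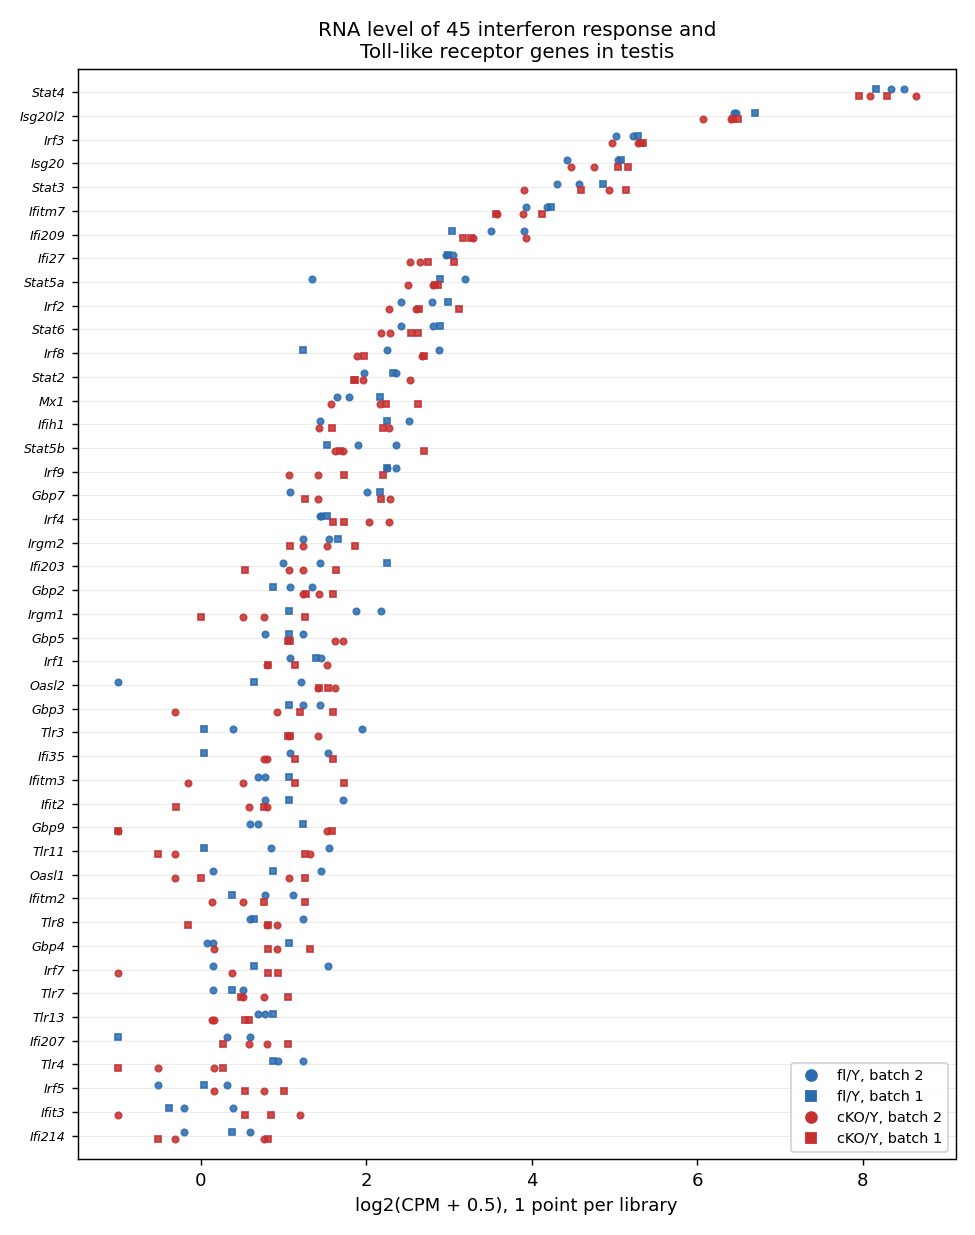
RNA level of 45 of the 47 members, ordered by mean CPM, with log2(CPM + 0.5) on the horizontal axis and 1 point per library (blue fl/Y, red cKO/Y, circles batch 2, squares batch 1). *Stat4* stands apart at the top with 248 to 397 CPM, 34 members have a mean under 5 CPM, and the 2 genotypes overlap in all but 5 of the tested members.

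Differences between genotypes were tested with limma, which fits a linear model per gene and moderates its variance, on log2(CPM + 0.5) with the batch as a covariate, over the 19400 genes that exceeded 1 CPM in 3 or more of the 7 libraries. The test was two-sided, and adjusted p refers to Benjamini-Hochberg adjustment over all genes tested, with a threshold of 0.05. Of the 47 members 44 passed the level filter. *Tlr7*, *Irf5* and *Ifit3* did not, and *Tlr4* passed only through the fl/Y libraries. No member passed the adjusted threshold in either direction (0 of 44 lower and 0 of 44 higher), where 0.00515% of all genes tested were lower and 0% were higher. The lowest adjusted p among the members was 0.9999. At an unadjusted p under 0.05, 3 members were lower in cKO/Y (*Tlr4*, *Irgm1* and *Irf9*, 6.82% of 44, background 1.37%) and 1 was higher (*Oasl2*, 2.27% of 44, background 1.22%). A gene that passed the filter only through the group where it is high had to differ, and without *Tlr4* 2 of 43 members (4.65%) were lower. No member passed the adjusted threshold by edgeR or DESeq2 on the recovered reads. At an unadjusted p under 0.05, the quasi-likelihood test of edgeR gave *Tlr4*, *Irgm1* and *Irf9* lower (background 1.14%) and *Oasl2* higher (background 1.07%). DESeq2 gave *Tlr4* and *Irgm1* lower (background 0.474%) and no member higher (background 0.464%). The filter favoured *Tlr4* in these tests too.

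Without any test, every cKO/Y library lay below every fl/Y library in 3 members (*Tlr4*, *Irf9* and *Tlr13*, background 1.59%) and above in 2 (*Oasl2* and *Irf4*, background 1.34%). Without *Tlr4* this held for 2 of 43 members in the lower direction. Of these, *Tlr13* exceeded 1 CPM in every fl/Y library but, in cKO/Y, only just in replicate 4 (1.00 CPM). The filter thus leaned on its fl/Y libraries too. With library sizes set to the sum over the listed genes, *Tlr4* alone stayed below (background 1%), and *Irf4* and *Gbp5* lay above (background 1.22%), while *Irf9*, *Tlr13* and *Oasl2* overlapped. Low genes reach such separation more often in these libraries. Among the 7404 genes tested with a mean under 5 CPM, an unadjusted p under 0.05 was reached by 2.26% in the lower and 2.05% in the higher direction, and 2.54% and 1.99% did not overlap. All 6 members just named are among the 31 tested members of that range. The fold change was below 0 for 29 of 44 members (65.9%, background 51.2%). The median log2 fold change of the members was -0.13, with -0.01 over all genes tested.

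**Figure D2:**
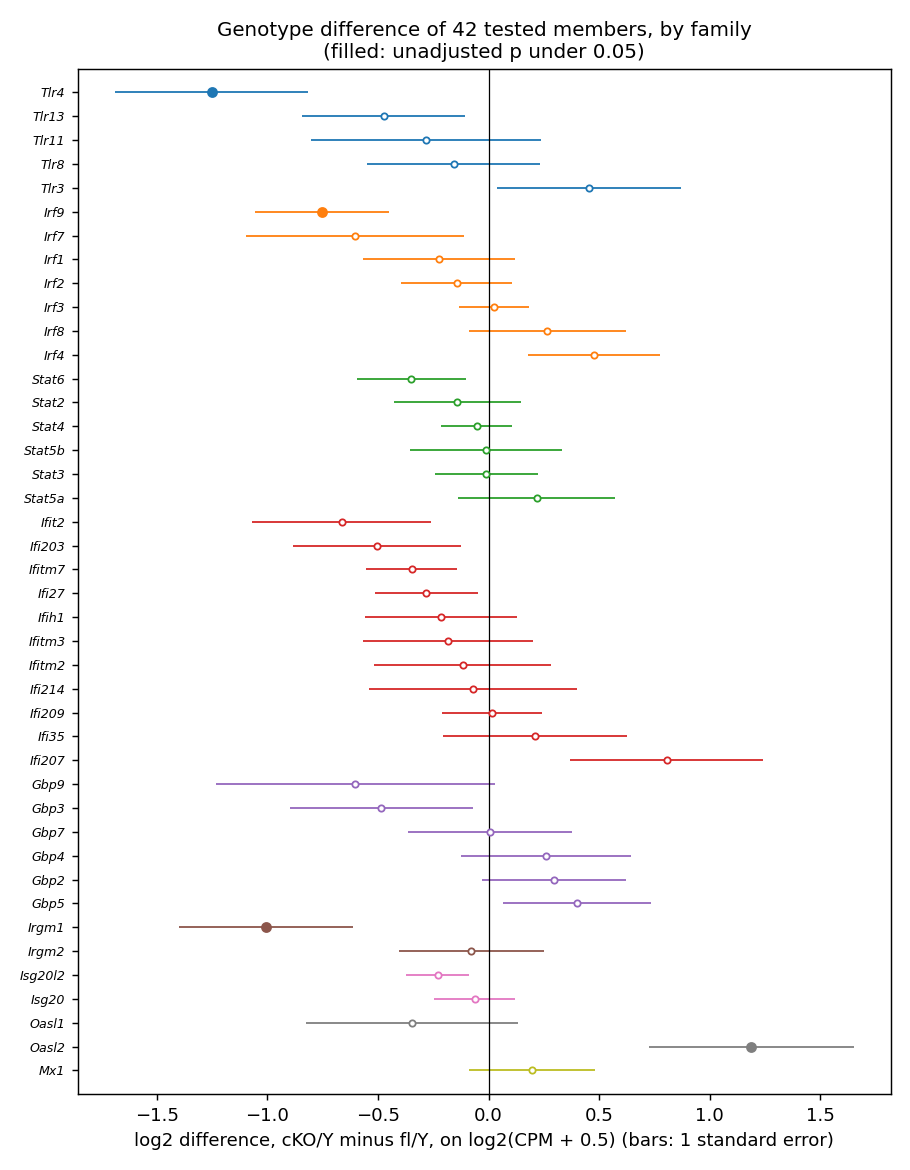
Log2 difference between cKO/Y and fl/Y testes for 42 of the 44 tested members, grouped by family and colour, with bars of 1 standard error and filled points for an unadjusted p under 0.05 in limma. The differences run from -1.25 (*Tlr4*) to 1.19 (*Oasl2*), and 4 points are filled.

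The Toll-like receptors were all scarce, with means of 0.874 to 1.66 CPM over the 6 genes. *Tlr4* (ENSMUSG00000039005, chromosome 4, 66827584 to 66930284 in GRCm38) encodes the lipopolysaccharide receptor. In fl/Y replicates 1 to 3 it was at 1.86, 1.41 and 1.33 CPM, and in cKO/Y replicates 1 to 4 at 0.620, 0.199, 0 and 0.703 CPM. All cKO/Y libraries were thus below all fl/Y libraries, on 10, 7 and 5 reads against 2, 1, 0 and 7 reads. The log2 fold change was -1.25 (standard error 0.44), with an unadjusted p of 0.0116 and an adjusted p of 0.9999 in limma. It was -1.26 within batch 2 and -1.24 within batch 1. When fl/Y replicate 3 was left out, the unadjusted p was 0.0526. The means of 1.53 ± 0.286 CPM (SD, n = 3) and 0.381 ± 0.336 CPM (SD, n = 4) lie close to the floor of 3 reads, which was up to 0.945 CPM in cKO/Y replicate 3.

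*Tlr13*, a mouse receptor for bacterial ribosomal RNA on the X chromosome, was at 1.12, 1.21 and 1.33 CPM in fl/Y and at 0.620, 0.598, 0.945 and 1.00 CPM in cKO/Y. The groups did not overlap, but the log2 fold change of -0.47 (standard error 0.37) had an unadjusted p of 0.216 in limma. *Tlr3*, the receptor for double-stranded RNA, was at 3.35, 0.808 and 0.530 CPM in fl/Y and at 2.17, 1.59, 1.57 and 1.61 CPM in cKO/Y. Here the fl/Y libraries spanned the cKO/Y range, with fl/Y replicate 1 the highest and the other fl/Y libraries the lowest. *Tlr7*, which reads single-stranded RNA, was at 0.929, 0.606 and 0.796 CPM in fl/Y and at 0.931, 1.20, 1.57 and 0.903 CPM in cKO/Y, and was not tested because it exceeded 1 CPM in fewer than 3 libraries. *Tlr8* and *Tlr11* had log2 fold changes of -0.16 and -0.28 with overlapping groups. In all, 4 of 5 tested receptors had a fold change below 0, with a family median of -0.28.

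The interferon regulatory factors held some of the most abundant members. *Irf3*, which is activated downstream of RNA and DNA sensors, was at 31.8, 36.8 and 38.5 CPM in fl/Y and at 38.5, 30.9, 39.4 and 40.1 CPM in cKO/Y. The groups overlapped only through cKO/Y replicate 2, which was the lowest of all libraries. The other cKO/Y libraries were above all fl/Y libraries, replicate 1 by very little. *Irf2*, a repressor of interferon targets, was at 4.83, 6.46 and 7.43 CPM in fl/Y and at 4.34, 5.58, 8.19 and 5.72 CPM in cKO/Y. The log2 fold changes of *Irf3* and *Irf2* were 0.03 and -0.14, with standard errors of 0.16 and 0.25.

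*Irf9* (ENSMUSG00000002325, chromosome 14, 55603571 to 55610030), the DNA-binding part of ISGF3, was at 4.28, 4.64 and 4.24 CPM in fl/Y and at 2.17, 1.59, 4.09 and 2.81 CPM in cKO/Y. The fl/Y libraries lay close together and above all cKO/Y libraries, of which cKO/Y replicate 3 came nearest. Its log2 fold change was -0.75 (standard error 0.30), with an unadjusted p of 0.0252 and an adjusted p of 0.9999 in limma, and it was -1.07 within batch 2 and -0.28 in batch 1. Leaving out fl/Y replicate 1 or 2 or cKO/Y replicate 2 or 4 raised the unadjusted p to between 0.0521 and 0.0880. No response element was found in its promoter.

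*Irf4*, a factor of lymphocytes and some macrophages, was at 2.23, 2.22 and 2.39 CPM in fl/Y and at 4.34, 3.59, 2.52 and 2.81 CPM in cKO/Y. The cKO/Y libraries were all higher, by little in batch 1 (log2 difference 0.13) and by more in batch 2 (0.71), and limma gave an unadjusted p of 0.129. *Irf1*, a factor induced by interferon gamma, was at 2.23, 1.62 and 2.12 CPM in fl/Y and at 1.24, 2.39, 1.26 and 1.71 CPM in cKO/Y. *Irf7*, which amplifies the response to interferon, was at 2.42, 0.606 and 1.06 CPM in fl/Y and at 0, 0.797, 1.26 and 1.41 CPM in cKO/Y. In both genes the groups overlapped. *Irf8* and *Irf5* had means of 4.50 and 0.820 CPM. Over the family, 4 of 8 tested factors were below 0 and 4 above, with a median of -0.06.

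Among the STAT genes, *Stat4* was the most abundant member. STAT4 is best known for interleukin-12 signalling in lymphocytes, and its RNA is known to be abundant in male germ cells. It was at 361, 324 and 286 CPM in fl/Y and at 270, 397, 248 and 312 CPM in cKO/Y, with the highest and the lowest value both in cKO/Y. The log2 fold change was -0.05 (standard error 0.16). *Stat4* overlaps the gene Gm28177 on the same strand, which covers 26.7% of its exon bases, so its level depends on how shared reads were counted.

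*Stat2*, the STAT of ISGF3 that pairs with IRF9, was at 4.65, 3.43 and 4.51 CPM in fl/Y and at 5.27, 3.39, 3.15 and 3.11 CPM in cKO/Y, with a log2 fold change of -0.14 (standard error 0.29). For *Stat2*, cKO/Y replicate 1 was the highest of all libraries, while the other cKO/Y libraries were below all fl/Y libraries. *Stat3*, which carries signals of interleukin-6 and related cytokines, was at 19.3, 23.2 and 28.6 CPM in fl/Y and at 30.1, 14.6, 34.6 and 23.7 CPM in cKO/Y. *Stat5a*, a mediator of prolactin and growth hormone signals, was at 2.04, 8.68 and 6.90 CPM in fl/Y and at 6.51, 5.18, 6.61 and 6.83 CPM in cKO/Y, where fl/Y replicate 1 alone was low. *Stat6*, the factor of interleukin-4 signalling, was at 6.51, 4.85 and 6.90 CPM in fl/Y and at 4.03, 4.39, 5.67 and 5.32 CPM in cKO/Y. It had the smallest unadjusted p of the family (0.177 in limma), and 6 of 7 STAT genes were below 0 with a median of -0.05.

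The effector genes were led by the Ifi family, whose 12 members differ in function. *Ifitm7*, of the interferon-induced transmembrane proteins that block virus entry, was at 17.7, 14.7 and 18.3 CPM in fl/Y and at 11.5, 14.4, 11.3 and 16.9 CPM in cKO/Y. Its log2 fold change was -0.35 (standard error 0.20, unadjusted p = 0.109 in limma), and all 3 Ifitm genes tested were below 0. *Ifi209*, one of the Ifi200 proteins with a DNA-binding HIN domain or a pyrin domain, was at 14.5, 10.9 and 7.69 CPM in fl/Y and at 9.31, 14.8, 8.50 and 9.13 CPM in cKO/Y. *Ifi27*, a small interferon-induced protein of mitochondria, was at 7.81, 7.27 and 7.43 CPM in fl/Y and at 5.27, 5.78, 7.87 and 6.22 CPM in cKO/Y. Of the 4 cKO/Y libraries only replicate 3 exceeded fl/Y for *Ifi27*. *Ifi207* was at 0.744, 1.01 and 0 CPM in fl/Y and at 1.24, 0.997, 1.57 and 0.703 CPM in cKO/Y, with a log2 fold change of 0.81 (standard error 0.44, unadjusted p = 0.0836 in limma), of which 0.24 within batch 2 and 1.66 within batch 1. *Ifih1*, the RNA sensor MDA5, and *Ifit2* had log2 fold changes of -0.22 and -0.66. Over the family, 8 of 11 tested members were below 0, with a median of -0.18.

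The GTPases of the response act on the membranes around pathogens. *Irgm1* (ENSMUSG00000046879, chromosome 11, 48861968 to 48871683) was at 3.16, 4.04 and 1.59 CPM in fl/Y and at 0.931, 1.20, 1.89 and 0.502 CPM in cKO/Y. These are 17, 20 and 6 reads against 3, 6, 6 and 5 reads, and cKO/Y replicate 3 was above fl/Y replicate 3. The log2 fold change was -1.01 (standard error 0.39), with an unadjusted p of 0.0214 and an adjusted p of 0.9999 in limma, and it was -1.39 within batch 2 and -0.43 within batch 1. Leaving out fl/Y replicate 1 or 2 or cKO/Y replicate 1 or 4 raised the unadjusted p to between 0.0520 and 0.0926. *Irgm2* was at 1.86, 2.42 and 2.65 CPM in fl/Y and at 1.86, 2.39, 3.15 and 1.61 CPM in cKO/Y, where the groups overlapped fully. Both Irgm genes have a match to the response element in their promoters.

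Guanylate-binding proteins, the other GTPases, were at 1.15 to 3.08 CPM. *Gbp7* was at 3.53, 1.62 and 3.98 CPM in fl/Y and at 2.17, 4.39, 1.89 and 4.01 CPM in cKO/Y. *Gbp5* was at 1.86, 1.21 and 1.59 CPM in fl/Y and at 2.79, 2.59, 1.57 and 1.61 CPM in cKO/Y, which was higher in batch 2 (log2 difference 0.67) and close to fl/Y replicate 3 in batch 1. Of the 6 genes 2 were below 0 and 4 above, with a median log2 fold change of 0.13, and none reached an unadjusted p under 0.05.

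*Oasl2* (ENSMUSG00000029561, chromosome 5, 114896936 to 114912234), an oligoadenylate synthase-like protein of the antiviral response, was the member with the most positive difference. It was at 0, 1.82 and 1.06 CPM in fl/Y and at 2.17, 2.59, 2.20 and 2.41 CPM in cKO/Y. On the deposited scale the cKO/Y libraries lay close together and above all fl/Y libraries, on 7, 13, 7 and 24 reads against 0, 9 and 4 reads. The log2 fold change was 1.19 (standard error 0.46), with an unadjusted p of 0.0211 and an adjusted p of 0.9999 in limma, and it was 1.42 within batch 2 and 0.85 within batch 1. When fl/Y replicate 1, the library at 0, was left out, the unadjusted p was 0.149. Its neighbour *Oasl1* had a log2 fold change of -0.35 with overlapping groups.

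*Mx1*, a dynamin-like restriction factor against influenza whose allele in C57BL/6 mice is known to be defective, was at 2.97, 2.63 and 3.98 CPM in fl/Y and at 2.48, 3.99, 5.67 and 4.22 CPM in cKO/Y, with a log2 fold change of 0.20 (standard error 0.29). The Isg genes encode exonucleases or relatives of one. *Isg20*, which degrades viral RNA, was at 21.0, 32.5 and 33.2 CPM in fl/Y and at 26.4, 21.7, 32.4 and 35.3 CPM in cKO/Y. *Isg20l2*, a nuclease of ribosomal RNA maturation named for its likeness to ISG20, was at 88.3, 86.6 and 103 CPM in fl/Y and at 84.1, 66.4, 86.0 and 89.2 CPM in cKO/Y. Its log2 fold change was -0.23 (standard error 0.14), with -0.23 within batch 2 and -0.24 within batch 1. Each of these genes overlapped between the groups.

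**Figure D3:**
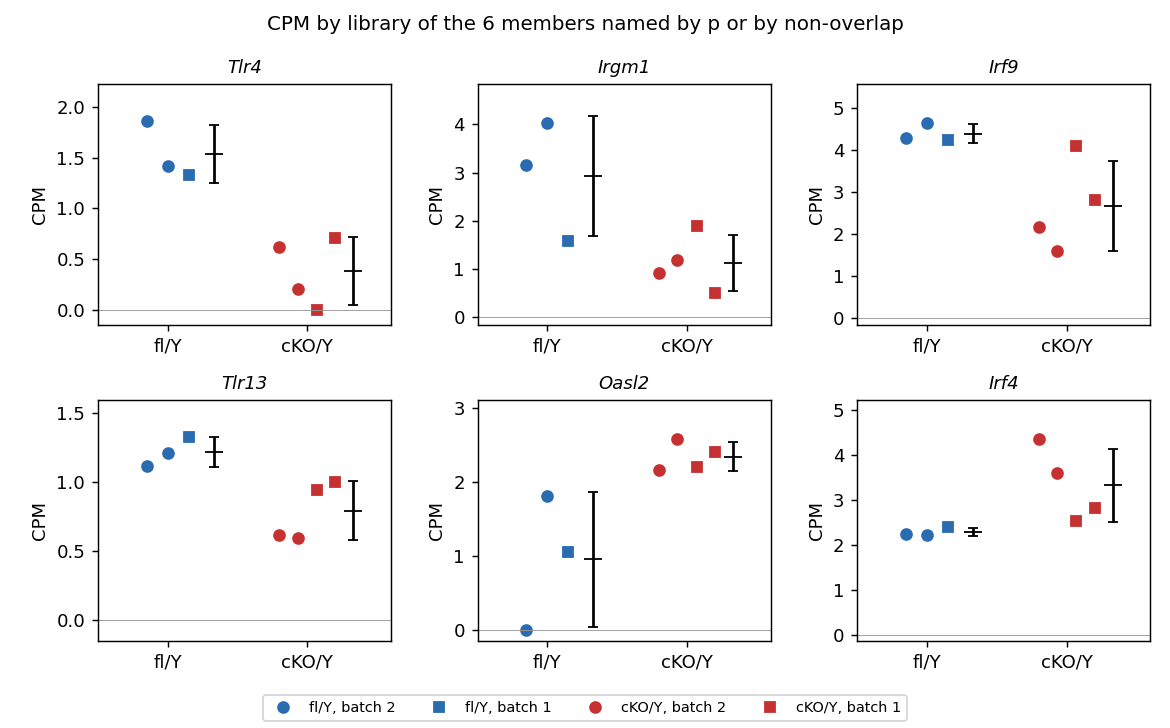
CPM in each library of the 6 members named by an unadjusted p under 0.05 or by groups that did not overlap (blue fl/Y, red cKO/Y, circles batch 2, squares batch 1, black bars mean and SD). *Tlr4*, *Irf9* and *Tlr13* are lower and *Oasl2* and *Irf4* higher in all cKO/Y libraries on this scale, while *Irgm1* overlaps, and every value is under 5 CPM. With library sizes set to the sum over the listed genes *Irf9*, *Tlr13* and *Oasl2* overlap too.

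The members that were not named by library ranged from 0.735 CPM (*Ifi214*) to 4.50 CPM (*Irf8*) in mean level. Of these 18 genes 16 were tested. None had an unadjusted p under 0.05 in limma, which the selection fixed, since every member under that threshold was named by library. *Gbp9* was at 0 in cKO/Y replicates 1 and 3 and at 2.39 and 2.51 CPM in cKO/Y replicates 2 and 4, so that the spread within the genotype exceeded that between genotypes. Such low values were not ordered by depth alone. In cKO/Y replicate 1 (3933017 reads in the listed genes), 15 of 47 members had at most 3 reads and 3 were at 0. In cKO/Y replicate 3, the shallowest (2822168 reads), 7 members had at most 3 reads and 2 were at 0. In fl/Y replicate 3 (3657385 reads) these were 9 and 1. In cKO/Y replicate 4, the deepest, 2 members had at most 3 reads and none was at 0.

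The batches were compared because both hold both genotypes. The fold change had the same sign in batch 2 and in batch 1 for 28 of 44 members (63.6%), with 48.4% over all genes tested. *Tlr4*, *Irgm1*, *Irf9* and *Oasl2* had the same sign in both. They were picked by their p over both batches together, which favours a shared sign, so this is not separate support. *Irf8* (-0.29 in batch 2, 1.10 in batch 1) and *Ifi35* (-0.53 and 1.32) had opposite signs, as had *Gbp3* (-1.03 and 0.34) and *Irf7* (-1.16 and 0.23). Batch 1 rests on 1 fl/Y library, so its differences carry the error of that library.

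**Figure D4:**
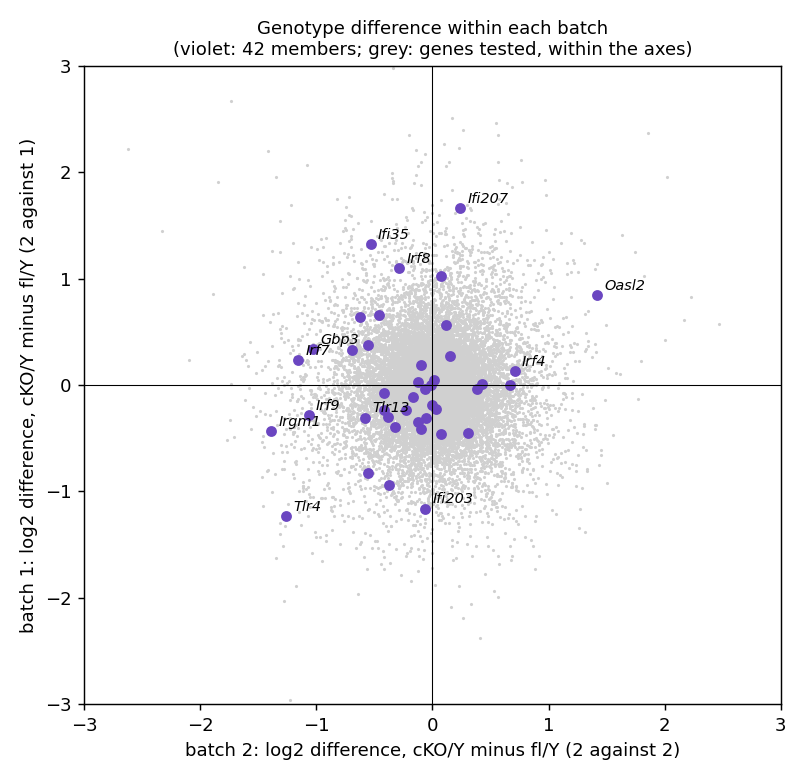
Log2 difference between cKO/Y and fl/Y within batch 2 (horizontal axis, 2 libraries against 2) and within batch 1 (vertical axis, 2 against 1) for 42 of the 44 tested members (violet) and for all genes tested that fall within the axes (grey). *Tlr4* at -1.26 and -1.24 and *Oasl2* at 1.42 and 0.85, both picked by their p over the 2 batches together, lie on the same side in both. *Irf8* and *Ifi35* change sides.

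The other genes of the pathways were taken from lists of 95 names, of which 71 were listed and 70 tested. None passed the adjusted threshold in limma, and at an unadjusted p under 0.05, 1 was lower and 1 higher (1.43% of 70 each, near the backgrounds of 1.37% and 1.22%). None of the 6 interferon entries was among the listed genes, and interferons were not analysed here. The interferon receptors and kinases (8 tested) had 0 genes at an unadjusted p under 0.05 and a median log2 fold change of -0.11. *Jak1* (45.3 CPM), *Ifnar1* (27.2 CPM), *Ifngr2* (24.5 CPM) and *Tyk2* (18.1 CPM) were all more abundant than most members. The nucleic acid sensors and adaptors (11 tested, median 0.02), the Toll-like receptor accessory proteins and adaptors (14 tested, median -0.01) and the negative regulators (8 tested, median -0.12) likewise had 0.

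The 2 genes at an unadjusted p under 0.05, no more than the share over all genes gives, were among the 29 other interferon-stimulated genes, whose median was 0.04. *Nlrc5*, the activator of MHC class I genes, was at 5.76, 7.27 and 9.28 CPM in fl/Y and at 2.48, 2.79, 8.50 and 5.92 CPM in cKO/Y. Its log2 fold change was -0.84 (unadjusted p = 0.0072, adjusted p = 0.9999 in limma), with -1.16 within batch 2 and -0.36 within batch 1. *Lgals3bp*, a secreted galectin-binding glycoprotein, was at 3.72, 5.25 and 3.18 CPM in fl/Y and at 9.93, 4.39, 10.1 and 9.23 CPM in cKO/Y. All cKO/Y libraries but replicate 2 were above fl/Y, with a log2 fold change of 0.91 (unadjusted p = 0.01, adjusted p = 0.9999 in limma). The MHC class I genes *H2-K1* and *H2-D1* had log2 fold changes of -0.08 and 0.04. In the same list *Psmb10*, *Psmb8* and *B2m* were at -0.34, -0.26 and -0.03, and all of these groups overlapped. *Tap1* was at 1.67, 2.83 and 1.59 CPM in fl/Y and at 1.24, 0.598, 1.57 and 1.30 CPM in cKO/Y. Its log2 fold change was -0.62 (unadjusted p = 0.117 in limma). Of the 70 pathway genes tested, *Tap1* alone did not overlap below fl/Y (background 1.59%), and 0 did above (background 1.34%).

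In RNA of whole testis, fewer cells of a type and less RNA per cell cannot be told apart. Macrophage markers (11 of 12 listed, mostly *Aif1*) summed to 277 to 321 CPM in fl/Y and 234 to 339 CPM in cKO/Y, and 0 of 11 reached an unadjusted p under 0.05. The macrophage gene *Adgre1* was at 3.98 to 9.29 CPM in fl/Y and 4.34 to 7.18 CPM in cKO/Y. Lymphocyte markers (3 of 8 listed) summed to 4.51 to 5.39 CPM in fl/Y and 3.10 to 5.78 CPM in cKO/Y, and *Cd3e* and *Cd79a* were not listed. Endothelial markers (8 of 8 listed) summed to 54.5 to 62.1 CPM and 51.2 to 72.4 CPM. Of these 8 markers 5 had a fold change below 0 and 3 above, with a median of -0.12, and 1 (*Pecam1*) was higher in cKO/Y at an unadjusted p under 0.05. Leydig cell markers (7 of 7 listed) summed to 477 to 603 CPM in fl/Y and 431 to 769 CPM in cKO/Y, with a median log2 fold change of 0.05 and 2 genes lower at an unadjusted p under 0.05 (*Star* and *Hsd3b6*). Sertoli cell markers (10 of 10 listed) summed to 368 to 616 CPM and 373 to 678 CPM, with 1 lower (*Rhox5*). Peritubular myoid cell markers (5 of 5 listed) summed to 96.0 to 107 CPM in fl/Y and 73.4 to 122 CPM in cKO/Y. Red blood cell markers (2 of 4 listed) summed to 13.6, 13.7 and 5.04 CPM in fl/Y replicates 1 to 3 and 4.98 to 7.44 CPM in cKO/Y. In both lists 0 genes reached an unadjusted p under 0.05. Markers of spermatogonia and spermatocytes (7 of 7 listed) summed to 727 to 1193 CPM and 490.3 to 1255 CPM, with 1 lower (*Stra8*). For comparison, limma put 1.37% of all genes tested under that unadjusted threshold in the lower direction and 1.22% in the higher direction. In lists this short even 1 gene lies above these shares, and only the Leydig cell list had 2, out of 7 tested. None of these markers passed the adjusted threshold. The part of these cells in the values of *Tlr4*, *Irgm1*, *Irf9* and *Oasl2* was not tested.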

How the data were processed

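RNA of total testis was analysed in 7 libraries. The table was used as deposited. Its signal values are deposited as CPM. The scaling that the authors applied to each library equals the TMM factors of edgeR, and values were whole multiples of 1 read to within 0.001. The submitters' processing notes name HISAT2 2.1.0, featureCounts, edgeR and GRCm38, whereas the study's methods name TopHat and HTSeq with edgeR. Whether counting used strand is not given in the sources used here.

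limma 3.58.1 (R 4.3.3) was fitted to log2(CPM + 0.5), with a variance trend and the batch as a covariate, for genes that exceeded 1 CPM in 3 or more of the 7 libraries. Fold changes on this scale understate the change of low genes. The same numbers in the labels were not stated to pair animals, so no pairing was used. Deviations of same-numbered libraries from their group means correlated at 0.101, 0.0660 and 0.392. The batch was not removed there, so these values cannot exclude a pairing. There were 20 alternatives, with edgeR 4.0.16 and DESeq2 1.42.0 on recovered reads among them. Exon lengths, overlaps and shared 35-base words came from GENCODE M21 and promoters from RefSeq (GRCm38.p6), with Python 3.11.15. Of the members, 46 have the same coordinates in the table and in GENCODE M21, and *Ifitm7* differs.

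The members and lists were chosen with earlier results of these data known. Members were named with their values if they had an unadjusted p under 0.05, were among the 12 most abundant, had groups that did not overlap, led their family in level or in p, or belonged to the core of the pathway (*Tlr3*, *Tlr4*, *Tlr7*, *Tlr9*, *Stat2*, *Irf1*, *Irf3*, *Irf7*, *Irf9*, *Isg15*). Pathway genes were named at an unadjusted p under 0.05. *Gbp9*, *Irf8*, *Ifi35*, *Gbp3*, the receptors and kinases, *H2-K1*, *H2-D1*, *Tap1* and others given with a single value were named after their values were seen. Values of 2 members are not reported here, although both are included in the counts and medians.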

Additional observations from a re-analysis of the deposited data

Results flagged for a closer look

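In 30 groups of 4 libraries (the named members and *Rlim*, each in cKO/Y), the highest and lowest values were compared with the rest by Dixon's ratio, which chance exceeds in about 1 group of 20, and 3 values stood apart. *Ifi209* was at 14.8 CPM in cKO/Y replicate 2, with 8.50 to 9.31 CPM in the other cKO/Y libraries and 7.69 to 14.5 CPM in fl/Y. *Stat2* was at 5.27 CPM in cKO/Y replicate 1, with 3.11 to 3.39 CPM in the others, and *Tlr3* at 2.17 CPM in the same library, with 1.57 to 1.61 CPM in the others.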

How the results depend on the processing

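No member passed an adjusted p of 0.05 under any of the 20 alternatives. The median log2 fold change of the members stayed below 0 when each library was left out, from -0.17 to -0.04. *Tlr4* (-2.07 to -0.88), *Irgm1* (-1.39 to -0.43), *Irf9* (-1.07 to -0.28) and *Oasl2* (0.58 to 1.92) kept their sign, with an unadjusted p under 0.05 in 17, 13, 11 and 16 of 19 alternatives. These alternatives reuse the same libraries and are not separate support. *Tlr4* passed the level filter only through the fl/Y libraries, and most alternatives kept that filter, so its difference was favoured in advance. With a mean above 5 CPM required, 13 members were tested, which removes all 6 members with a low p or separate groups, so that an unadjusted p under 0.05 was reached by 0 in either direction and 0 did not overlap. In batch 1 alone, with 1 fl/Y library, 1 member was lower (*Ifi203*) and 3 higher (*Ifi207*, *Ifi35* and *Irf8*) at an unadjusted p under 0.05, where 2.32% and 2.89% of all genes were, with 0 other pathway genes lower and 4 higher. In batch 2 alone *Rlim* was at -1.29 (adjusted p = 0.872 in limma). With fewer libraries, more groups did not overlap: 13 members lower and 16 higher in batch 1 alone (33.5% and 32.6% of all genes), and 13 and 4 in batch 2 alone (12.9% and 11.3% of all genes). Without a batch term 0 other pathway genes were lower at an unadjusted p under 0.05, where 0.84% of all genes were. *Rlim* was then at -1.47 (adjusted p = 0.921 in limma). With the replicate block 1 member was lower at an unadjusted p under 0.05 (*Tlr4*, which the filter favoured), where 1.01% of all genes were. *Irf9* and *Irgm1* were at an unadjusted p of 0.0681 and 0.0737 in limma, and *Rlim* was at -1.35 (adjusted p = 0.307 in limma). Whether the numbers pair the libraries is not stated. By deviation from the group means, fl/Y replicate 1 correlated best with cKO/Y replicate 2 (0.474). In contrast, fl/Y replicates 2 and 3 correlated best with the cKO/Y library of the same number (0.0660 and 0.392). The batch was not removed from these correlations, which cannot exclude a pairing. With library sizes set to the sum over the listed genes, 1 member did not overlap below fl/Y and 2 above. Other pathway genes higher numbered 2 with that scaling, without a level filter and by the likelihood ratio test of edgeR. In these settings 1.13%, 1.3% and 1.43% of all genes were higher at an unadjusted p under 0.05. By DESeq2 0 members were higher at an unadjusted p under 0.05, where 0.464% of all genes were. The cause of these shifts was not tested. Leaving out 1 library at a time gave 1 to 3 members lower at an unadjusted p under 0.05 (0.938 to 3.12% of all genes). It gave 3 to 6 not overlapping below (2.67 to 5.1% of all genes) and 2 to 4 above (2.2 to 5.02%). Of the other pathway genes, 1 to 3 were lower and 1 to 5 higher at an unadjusted p under 0.05. The shares over all genes were 0.938 to 3.12% and 0.897 to 3.16%. *Rlim* was at -1.52 to -1.28. Many of these genes had few reads. In each library but cKO/Y replicate 4, 18 to 30 of the 47 members had at most 10 reads, and in that library 9 had. The part of depth in these results was not tested.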
